A study of Homo sapiens with 4 samples.

Results

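SWI/SNF complexes use the energy of ATP to slide and evict nucleosomes, and so open chromatin at promoters and enhancers. Each complex is built around an ATPase motor (SMARCA4 or SMARCA2), a core in which SMARCB1, SMARCC1, SMARCC2, SMARCE1 and a SMARCD subunit take part, and a targeting subunit such as ARID1A or ARID1B. Genes of the complex, ARID1A above all, are often mutated in gastric cancer. Nuclear oestrogen receptors are known to recruit SWI/SNF to their target genes in breast cancer cells.

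The 10 subunits described here were found by their gene symbols in the deposited table of 58336 genes, and all 10 were present. Their RNA was sequenced in 2 gastric cancer lines: AGS, from a gastric adenocarcinoma and epithelial in form, and HGC-27, from an undifferentiated gastric carcinoma. The 4 libraries were AGS treated with 10 nM estradiol (E2, the main oestrogen) for 1 day, HGC-27 treated in the same way, and the untreated control (nc) of each line; all are labelled as wild type, and the labels name no transgene or selection. AGS is set against HGC-27 with 2 libraries a line, and estradiol against control with 1 pair of libraries in each line.

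Total counts were 24597379 to 28734374 per library. The labels do not say that libraries came from separate cultures, so the spread behind the p-values may be technical. That spread is pooled over genes, since the 2 libraries of a line differ in treatment and are not replicates of 1 condition. The lines are 1 line of each kind. Epithelial markers separated the lines: all 7 (CDH1, EPCAM, KRT8, KRT18, KRT19, CLDN4 and ESRP1) were higher in AGS, with a median log2 difference of 7.06. Of 6 mesenchymal markers, the 5 that were tested were lower in AGS, and CDH2 had at most 11 counts in any library. In HGC-27 the epithelial markers spanned a wide range, with KRT19 at 2 and 1 counts, EPCAM at 8 and 10, CDH1 at 68 and 55, and KRT8 at 1649 and 1825, in the estradiol and control libraries. The leukocyte markers PTPRC, CD14 and CD3E and the endothelial markers PECAM1, CDH5 and VWF had at most 22 counts in any library, with CD3E at 0 throughout. ESR1, which encodes the classical oestrogen receptor, had 5 counts in AGS with estradiol and 4 in AGS control, against 3 in HGC-27 with estradiol and 1 in HGC-27 control. ESR2, a nuclear receptor for oestrogen related to ESR1, had 73 and 44 counts in the AGS libraries with and without estradiol, against 19 and 17 in those of HGC-27. GPER1, a membrane receptor reported to bind oestrogen, had 28 and 35 counts in the AGS libraries, against 894 and 1051 in those of HGC-27; both differed between the lines (edgeR log2 difference of 1.66 ± 0.43 for ESR2 and -4.93 ± 0.16 for GPER1).

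The lines differed in the RNA levels of most of the 10 SWI/SNF subunits, whereas none of the 10 passed the test of estradiol. Proteins and assembled complexes were not measured. Both ATPases, SMARCC2, SMARCD1 and SMARCD3 were lower in AGS than in HGC-27, by 1.67-fold to 2.87-fold. SMARCC1, ARID1A, ARID1B and SMARCE1 were higher in AGS, by 1.14-fold to 1.40-fold, and SMARCB1 did not pass the test. Of the 10 subunits, 9 passed at an adjusted p of 0.05 by edgeR's quasi-likelihood F-test (treatment in the model, Benjamini-Hochberg over 18278 tested genes), 4 higher and 5 lower in AGS. Of all tested genes, 77.2% passed the same test (35.7% higher and 41.5% lower in AGS), so passing was common, and the size and direction of each difference describe the subunits better. In bulk RNA, fewer cells that express a gene and less RNA per cell cannot be told apart. CPM values of the lines (CPM, a gene's count as a share of the TMM-normalised library size) did not overlap for any of the 10, as for 88.7% of all tested genes. The median size of the log2 difference was 0.61 over the 10 subunits and 0.89 over all tested genes. The 3 subunits that passed and differed at least 2-fold, SMARCA2, SMARCD3 and SMARCA4, were all lower in AGS; 44.6% of all tested genes met this rule, 26.3% lower and 18.3% higher in AGS. The summed level of the 10, not divided by length, was 1291 and 1258 CPM in AGS and 1710 and 1730 CPM in HGC-27, in the estradiol and control libraries. SMARCA4 alone made up 278 and 275 CPM of this in AGS and 581 and 591 CPM in HGC-27. Over 30 subunits (these 10 and the other subunits listed further on, without ACTB) the sum was 2415 and 2393 CPM in AGS and 2923 and 2965 CPM in HGC-27. ACTB alone had 4817 and 4056 CPM in AGS, against 3362 and 3538 CPM in HGC-27. That is more than the 30 together in each library, so the comparison of these sums depends on leaving ACTB out.

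**Figure D1:**
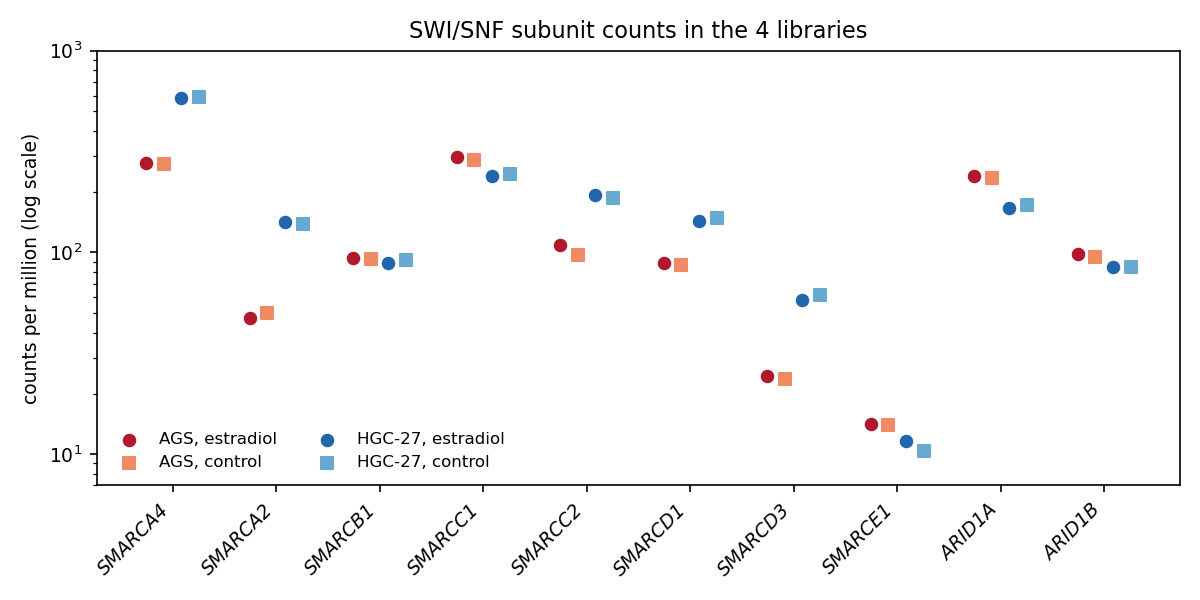
CPM (vertical log axis) of the 10 SWI/SNF subunits in the 4 libraries; circles are estradiol libraries, squares control libraries, red shades AGS and blue shades HGC-27. Within a line the 2 symbols nearly coincide, while SMARCA2, SMARCA4, SMARCC2, SMARCD1 and SMARCD3 lie lower in AGS than in HGC-27.

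The motor subunits were both lower in AGS. SMARCA4 (ENSG00000127616, chromosome 19, 10960825 to 11079426, plus strand, GRCh38) is the ATPase that many cell types depend on. It had 278 CPM in AGS with estradiol and 275 in AGS control, against 581 CPM in HGC-27 with estradiol and 591 in HGC-27 control. Both AGS libraries thus lay below both HGC-27 libraries, with a fitted log2 difference of -1.09 ± 0.05 (SE, n = 2 libraries a line, edgeR adjusted p = 8.49e-67). SMARCA2 (ENSG00000080503, chromosome 9, 1980290 to 2193624, plus strand), the alternative ATPase, had 47.4 and 50.1 CPM in AGS with and without estradiol, against 142 and 138 CPM in HGC-27. Its log2 difference of -1.52 ± 0.06 was the largest in size among the 10 (edgeR adjusted p = 4.55e-79). With limma-voom the adjusted p was 2.84e-05, so how small the p is depends on the tool. In size the SMARCA2 difference ranked 6277th of the 18278 tested genes, so differences of this size were common between the lines. Set apart by treatment, the log2 ratio of AGS over HGC-27 for SMARCA2 was -1.58 (95% counting interval -1.68 to -1.49) among estradiol libraries and -1.46 (-1.55 to -1.37) among controls; such intervals cover counting error only. For SMARCA4 it was -1.07 (-1.11 to -1.03) among estradiol libraries and -1.11 (-1.15 to -1.07) among controls.

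To show the upstream sequence of the 3 subunits that differed at least 2-fold, the 250 bases before the RefSeq transcription start (GRCh38.p14; where a gene has several starts, the one farthest upstream) are printed 5′ to 3′ on the gene's strand, with matches to the GC box (GGGCGG, or CCGCCC on the other strand), a motif that SP1-family factors bind, in capitals. They are chr9:2015097-2015346 (plus strand) for SMARCA2, chr7:151277150-151277399 (minus strand) for SMARCD3 and chr19:10960780-10961029 (plus strand) for SMARCA4. The gene bounds in the deposited table begin farther upstream than these RefSeq starts. The SMARCA2 and SMARCD3 stretches lie inside those bounds, as does most of the SMARCA4 stretch.
SMARCA2: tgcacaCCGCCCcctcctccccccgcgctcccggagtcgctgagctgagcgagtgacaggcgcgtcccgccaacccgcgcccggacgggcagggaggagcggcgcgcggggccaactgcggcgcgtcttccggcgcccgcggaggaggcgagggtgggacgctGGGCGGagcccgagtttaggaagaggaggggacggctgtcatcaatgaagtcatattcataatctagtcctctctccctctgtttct
SMARCD3: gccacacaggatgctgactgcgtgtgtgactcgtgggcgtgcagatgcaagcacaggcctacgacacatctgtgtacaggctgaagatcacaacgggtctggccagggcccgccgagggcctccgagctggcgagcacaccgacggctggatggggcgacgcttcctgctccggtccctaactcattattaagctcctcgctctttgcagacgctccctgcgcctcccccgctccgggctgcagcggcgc
SMARCA4: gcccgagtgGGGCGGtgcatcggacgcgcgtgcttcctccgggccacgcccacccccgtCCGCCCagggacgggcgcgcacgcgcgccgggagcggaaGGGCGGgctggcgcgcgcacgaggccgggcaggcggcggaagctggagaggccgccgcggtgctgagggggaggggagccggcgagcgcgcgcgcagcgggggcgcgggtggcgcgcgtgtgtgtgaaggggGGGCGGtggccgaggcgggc
The SMARCA4 stretch held 4 GC boxes, 44 CpG dinucleotides and 82.4% G and C. The SMARCA2 stretch held 2 GC boxes, 29 CpG and 68.8% G and C, and that of SMARCD3 held 0 GC boxes, 21 CpG and 65.2% G and C. RefSeq windows of 300 bases (250 before to 50 after a start) were at hand for 8 of the 10 subunits, with 15 windows in all. A GC box stood in 9 of these 15 windows and in 44.9% of all 34943 windows. The full oestrogen response element, an inverted repeat of GGTCA with a spacer, stood in 0 of the 15 and in 0.0572% of all. GGTCA by itself, counted on both strands and so also inside any full element, stood in 2 of the 15 and in 37.4% of all. These are matches of letters, and which of several starts was used cannot be read from counts per gene.

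The core scaffold subunits SMARCC1 and SMARCC2, which are close paralogs and pair with each other in the complex, differed in opposite directions. SMARCC1 (ENSG00000173473, chromosome 3, 47585272 to 47782106, minus strand) had 297 and 289 CPM in AGS with and without estradiol, against 240 and 244 CPM in HGC-27. It was higher in AGS by 0.28 ± 0.05 on the log2 scale (edgeR adjusted p = 2.81e-07). SMARCC2 (ENSG00000139613, chromosome 12, 56162983 to 56189567, minus strand) had 109 and 97.1 CPM in AGS, against 193 and 187 CPM in HGC-27. It was lower in AGS, with a log2 difference of -0.88 ± 0.06 (adjusted p = 6.51e-43). Part of SMARCC2 (4.11% of the bases of its main coding transcript) overlaps exons of MYL6 on the other strand, which had 7202 to 9202 counts; the sources used here do not give whether strand was kept in counting, and without strand reads of the overlap cannot be told apart.

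SMARCB1 (ENSG00000099956, chromosome 22, 23786931 to 23838008, plus strand), the core subunit whose loss defines rhabdoid tumours, was the flattest of the 10. It had 94.1 and 92.9 CPM in AGS with and without estradiol, against 89.1 and 92.0 CPM in HGC-27. Its log2 difference was 0.05 ± 0.06 (edgeR adjusted p = 0.486), and -0.04 when upper-quartile factors were used for scaling.

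SMARCD1 and SMARCD3 belong to a family of 3 mutually exclusive subunits that link the complex to transcription factors, SMARCD3 being best known from heart muscle. SMARCD1 (ENSG00000066117, chromosome 12, 50084972 to 50100712, plus strand) had 88.6 and 86.8 CPM in AGS with and without estradiol, against 144 and 149 CPM in HGC-27, a log2 difference of -0.74 ± 0.06 (adjusted p = 1.74e-30). SMARCD3 (ENSG00000082014, chromosome 7, 151238764 to 151277896, minus strand) had 24.4 and 23.5 CPM in AGS, against 58.4 and 61.9 CPM in HGC-27, a log2 difference of -1.33 ± 0.08 (edgeR adjusted p = 6.50e-46). Every AGS library lay below every HGC-27 library for both genes. The third of the family, SMARCD2, had 2858 and 2774 counts in the AGS libraries, against 2928 and 3315 in those of HGC-27, a log2 difference of -0.14 ± 0.06 (adjusted p = 0.0223).

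ARID1A and ARID1B are alternative DNA-binding subunits of the canonical complex. ARID1A (ENSG00000117713, chromosome 1, 26693236 to 26782110, plus strand) had 240 and 235 CPM in AGS with and without estradiol, against 167 and 172 CPM in HGC-27. It was higher in AGS by 0.49 ± 0.05 on the log2 scale (edgeR adjusted p = 9.62e-18). ARID1B (ENSG00000049618, chromosome 6, 156777374 to 157210779 in the file, plus strand) had 98.4 and 95.2 CPM in AGS, against 84.9 and 85.2 CPM in HGC-27. Its log2 difference of 0.19 ± 0.06 passed the test (adjusted p = 0.00373) but did not with upper-quartile factors, where it was 0.10 (adjusted p = 0.123).

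SMARCE1 (ENSG00000073584, chromosome 17, 40624962 to 40648864, minus strand), a core subunit with a DNA-binding HMG domain, had far fewer counts than the other 9. It had 391 counts in AGS with estradiol and 361 in AGS control, against 290 in HGC-27 with estradiol and 299 in HGC-27 control, whereas no other subunit had under 612 counts in any library. An annotated protein-coding gene on the same strand, AC073508.2 (chromosome 17, 40627356 to 40665141), has exons that cover 59.7% of the bases of SMARCE1's main coding transcript and 91.5% of its coding bases; AC073508.2 had 0 counts in all 4 libraries. featureCounts, which the submitters' processing notes name, by default assigns no read that overlaps exons of more than 1 gene; the sources used here do not give the setting. Of 19606 protein-coding genes of the file with a coding transcript, the 870 with at least 50% of such overlap had a median of 0.121 CPM, and the other 18736 had a median of 11.2 CPM. How much of SMARCE1's RNA its counts cover is thus not known, and its level cannot be set against those of the other subunits; the part of the overlap in its low count was not tested. Its line difference of 0.36 ± 0.13 on the log2 scale (adjusted p = 0.0115) was the least firm of the 9 that passed. DESeq2 gave 0.37 (adjusted p = 0.106), upper-quartile factors gave 0.27 (adjusted p = 0.0617), and without the HGC-27 control library it was 0.27 (adjusted p = 0.132). No other subunit shared more than 6.91% of its main coding transcript with exons of another gene.

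The levels of different subunits were compared per length, as RPKM (CPM divided by length in kilobases). With the gene length given in the file, which for each subunit but ARID1B equals the merged length of all its annotated exons, SMARCC1 stood highest in AGS at 38.3 ± 0.7 RPKM (SD, n = 2). It was followed by SMARCA4 at 17.5 ± 0.1, SMARCD1 at 17.1 ± 0.2, ARID1A at 14.9 ± 0.2 and SMARCC2 at 12.05 ± 0.99 RPKM. In HGC-27, SMARCA4 stood highest at 37.2 ± 0.5 RPKM, followed by SMARCC1 at 31.6 ± 0.3, SMARCD1 at 28.5 ± 0.6, SMARCC2 at 22.2 ± 0.4 and SMARCD3 at 11.6 ± 0.5 RPKM. The leading subunit was thus a scaffold in AGS and the SMARCA4 motor in HGC-27 on this scale. Leaving aside SMARCE1, whose counted level (0.75 ± 0.01 RPKM in AGS and 0.59 ± 0.05 in HGC-27) is not ranked because of the overlap, ARID1B stood lowest at 2.20 ± 0.05 RPKM in AGS and 1.931 ± 0.004 in HGC-27. No neighbours in the order of the other 9 had overlapping ranges within a line. The order depends on the length used, because merged exons are far longer than an mRNA: SMARCB1 has 16525 merged bases but 1717 in its main coding transcript. Scaled by the main coding transcript, SMARCB1 stood highest in AGS (54.5 RPKM, ahead of SMARCA4 at 50.1 and SMARCC1 at 45.9), and SMARCA4 stood highest in HGC-27 (106 RPKM, ahead of SMARCB1 at 52.7 and SMARCC2 at 46.2). On that scale SMARCC2 and SMARCD1 overlapped in AGS.

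Composition within each paralog family was taken as shares of the RPKM of the file's lengths in each library. SMARCA4 made up most of the ATPase messages in both lines, and SMARCA2 made up 12.7% and 13.4% in AGS with and without estradiol, against 17.2% and 16.5% in HGC-27. Both ATPases were lower in AGS, and SMARCA2 more so: its ratio to SMARCA4 was 1.35-fold lower in AGS. SMARCC1 made up 75.3% and 76.9% of the scaffold pair in AGS, against 58.2% and 59.3% in HGC-27, and its ratio to SMARCC2 was 2.24-fold higher in AGS. Scaled by the main coding transcript, SMARCC1's mean share was 64.7% in AGS and 45.1% in HGC-27, so that SMARCC2 was the more abundant message in HGC-27 on that scale alone. In the SMARCD family, SMARCD3 made up 9.45% and 9.06% in AGS, against 15.9% and 16.7% in HGC-27. SMARCD2 made up 55.8% and 57.2% in AGS, against 44.4% and 42.9% in HGC-27, and SMARCD1 made up the rest. ARID1A made up 87.1% and 87.2% of the ARID1 pair in AGS, against 84.4% and 84.8% in HGC-27, and its ratio to ARID1B was 1.23-fold higher in AGS. The ranges of the lines did not overlap for any of these shares; no test is given, since 2 libraries a line allow an exact permutation p (two-sided) of 0.333 at the smallest. Ratios between lines do not depend on the length used.

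**Figure D2:**
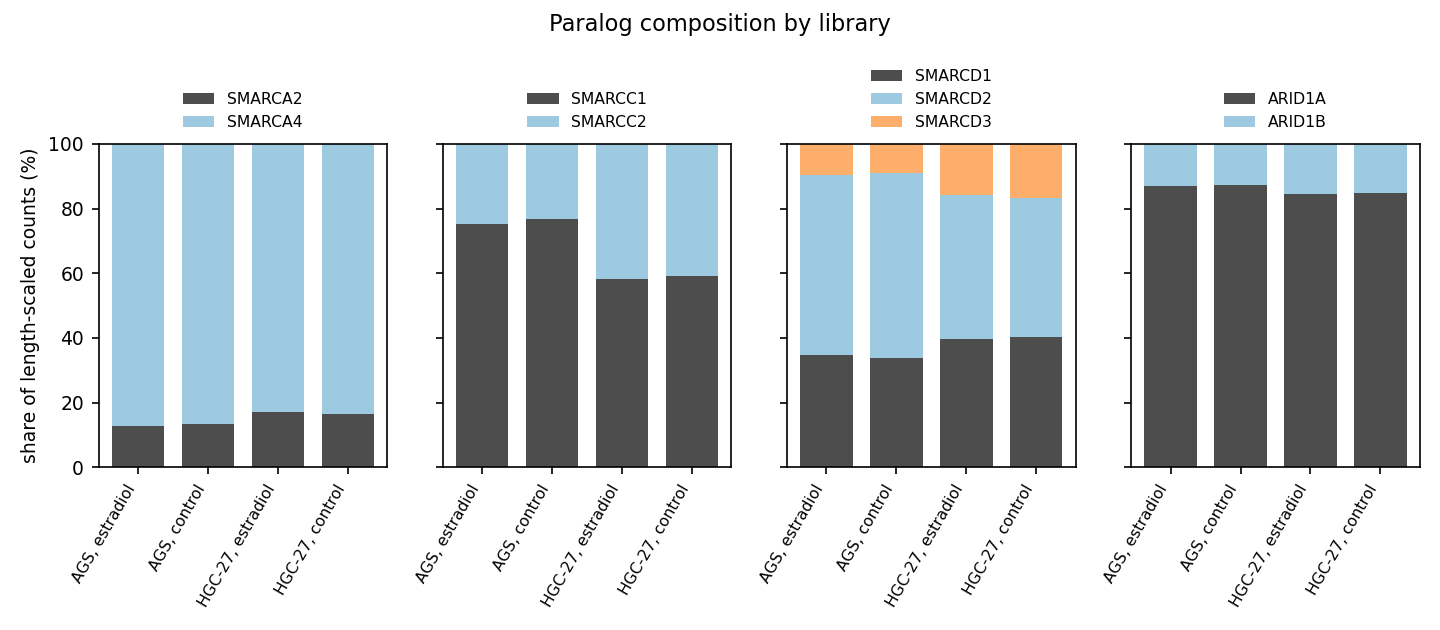
Share of length-scaled counts (vertical axis, percent) of each paralog within its family, 1 stacked bar for each library with AGS on the left; lengths are those in the file. SMARCC1 makes up over 75% of its pair in both AGS bars and under 60% in both HGC-27 bars, and SMARCD3 is the thinner band in AGS.

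Estradiol was not followed by a detectable change in any of the 10. By edgeR with the cell line as a block, 0 of the 10 subunits passed at an adjusted p of 0.05 and 0 had an unadjusted p under 0.05. Of all 18278 tested genes, 0.153% passed and 593 had an unadjusted p under 0.05, so counts of 0 among 10 genes do not set the subunits apart. DESeq2 called 1 gene in all and limma-voom 0, with no subunit among them. Fitted log2 changes with estradiol ran from -0.03 ± 0.08 (SE) for SMARCD3 to 0.10 ± 0.06 for SMARCC2. Their median size was 0.01, against 0.09 over all tested genes, which include genes with far fewer counts. For ratios within a line, the median size over the 10 was 0.035 in AGS and 0.045 in HGC-27. Over the 11952 genes averaging 100 counts or more it was 0.085 and 0.076. The fitted SMARCC2 change had the smallest unadjusted p of the 10 (0.0714, edgeR adjusted p = 0.999937). In data simulated for this comparison (17993 genes tested), edgeR found 41 of 50 genes with a 1.5-fold change and 49 of 50 with a 2-fold change. Smaller changes could thus go unseen. The simulation gave every gene the same spread, estimated from these libraries, and put the same change in both lines. Recovery in the data themselves is therefore not known, and a change in only 1 line was not simulated. Of the 50 with a 2-fold change, DESeq2 found 27, with 37 false calls in all, and limma-voom found 24. The absence of subunits from the calls of those 2 tools thus says little.

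Within a line there was 1 library of each kind, so ratios are given with counting intervals and no test. In AGS, SMARCC2 had 3014 counts with estradiol and 2523 in control, a log2 ratio of 0.17 (95% counting interval 0.09 to 0.24). It was the only one of the 10 whose interval excluded 0 in AGS. There, 27.8% of the 11952 genes averaging 100 counts or more over all libraries of both lines had such an interval. In AGS, 1596 of these genes had an interval above 0, 1728 below 0 and 8225 one that included 0. In HGC-27, SMARCC2 had 4817 counts with estradiol and 5418 in control, a log2 ratio after scaling of 0.04 (-0.02 to 0.10). In HGC-27 the interval included 0 for all 10 subunits, against an interval that excluded 0 for 24.8% of the same genes. Genes of this set with 0 counts in both libraries of a line have no interval there. They still count in that line's share and lower it. The ratio had the same sign in both lines for 2 of the 10, SMARCC2 and SMARCE1, and for 5745 of the 11952 genes. For genes with 0 counts in both libraries of a line, the sign there is set by the library sizes alone. The 5745 is therefore only a rough background. SMARCE1 stood at 0.03 (-0.18 to 0.24) in AGS and 0.17 (-0.07 to 0.40) in HGC-27. SMARCA2 stood at -0.08 (-0.19 to 0.03) in AGS and 0.04 (-0.02 to 0.11) in HGC-27. SMARCA4 stood at 0.01 (-0.03 to 0.06) in AGS and -0.03 (-0.06 to 0.01) in HGC-27. The difference in response between the lines cannot be tested with 1 library each.

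**Figure D3:**
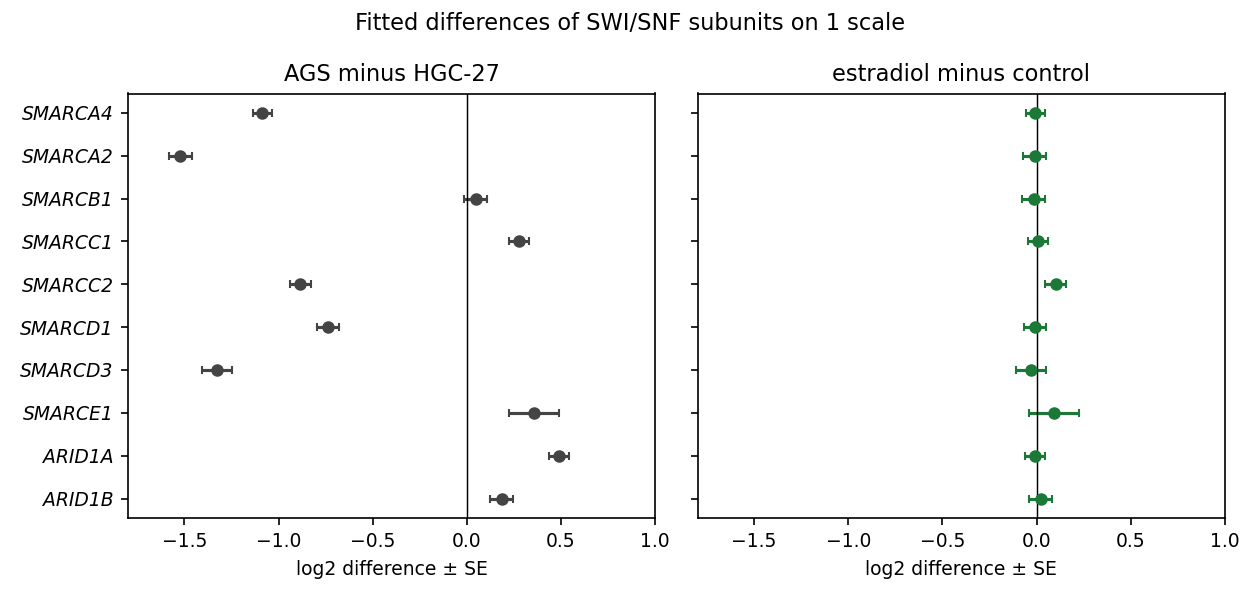
Fitted log2 differences (horizontal axis, points, with bars of ± 1 SE) of the 10 subunits for AGS minus HGC-27 on the left and estradiol minus control on the right, on the same scale. Line differences run from -1.52 for SMARCA2 to 0.49 for ARID1A, whereas estradiol changes stay between -0.03 and 0.10.

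The other subunits of the family moved in both directions between the lines. Of 21 listed, 20 were tested, and 19 passed, 9 higher and 10 lower in AGS, with a median log2 difference of -0.13; 0 passed with estradiol, where BICRAL alone had an unadjusted p under 0.05 (0.032, log2 change -0.24 ± 0.11). DPF3, a histone-reading subunit, had 128 and 145 counts in the AGS libraries with and without estradiol, against 5 and 6 in those of HGC-27, a log2 difference of 4.62 ± 0.42. BICRA, which marks the non-canonical complex, had 955 and 952 counts in the AGS libraries, against 287 and 317 in those of HGC-27 (1.67 ± 0.11). BCL7A was also higher in AGS (0.85 ± 0.10). BCL11B, a zinc finger factor that joins the complex, had 132 and 136 counts in the AGS libraries, against 707 and 816 in those of HGC-27 (-2.50 ± 0.13). Its paralog BCL11A stood at -1.43 ± 0.13. SS18, the subunit fused in synovial sarcoma, had 2001 and 1883 counts in the AGS libraries, against 3925 and 4587 in those of HGC-27 (-1.12 ± 0.06). ACTL6B, the neuronal actin-like subunit, had 0 counts in every library. ACTB, a gene with many processed pseudogenes, had 84034 to 133152 counts and was higher in AGS (0.36 ± 0.05). Whether the pseudogenes affect its counts was not tested, so these counts are uncertain.

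Remodellers of other families also passed in both directions: of 20, 9 were higher and 9 lower in AGS, with a median log2 difference of 0.04. SMARCA1, an ISWI-family ATPase, had 1 and 3 counts in the AGS libraries with and without estradiol, against 482 and 565 in those of HGC-27. Its log2 ratio was -8.47 (counting interval -14.36 to -6.57) among estradiol libraries and -7.18 (-9.68 to -5.85) among controls. The ATPases SMARCAD1 (1.68 ± 0.07) and CHD7 (1.08 ± 0.06) were higher in AGS. CHD9 (-1.46 ± 0.06), ATRX (-1.21 ± 0.05) and the ISWI partner BAZ1B (-0.99 ± 0.05) were lower in AGS. Polycomb proteins, whose repressive marks SWI/SNF is known to oppose, passed for 15 of 17, 10 higher and 5 lower in AGS, with a median of 0.19. BMI1 (1.32 ± 0.06) and EED (0.85 ± 0.09) were higher in AGS. PHF19 had 38 and 25 counts in the AGS libraries, against 1135 and 1359 in those of HGC-27 (-5.29 ± 0.15), and CBX2 (-1.18 ± 0.06), RING1 (-0.72 ± 0.09) and CBX8 (-0.71 ± 0.10) were also lower in AGS. No gene of these 2 lists passed with estradiol, and 0 of them had an unadjusted p under 0.05.

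**Figure D4:**
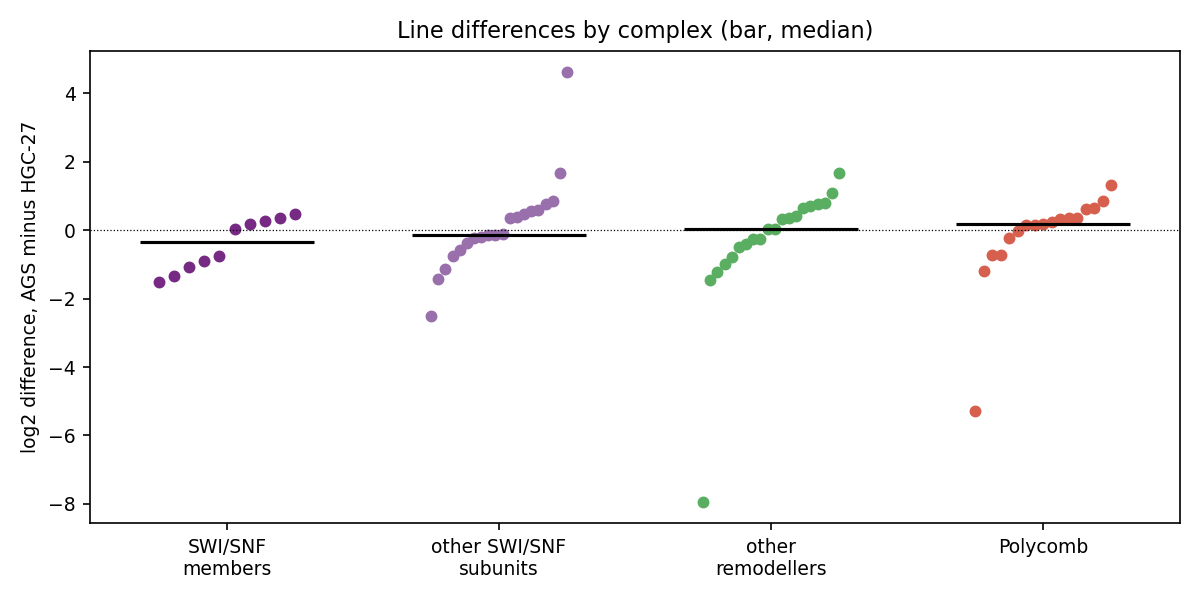
Fitted log2 difference of AGS minus HGC-27 (vertical axis) for each tested gene of 4 lists, 1 point a gene in rising order, with a bar at the list's median. The 10 SWI/SNF subunits lie between -1.52 and 0.49. The other lists are longer (20, 20 and 17 tested genes) and span more, with DPF3 at 4.62, SMARCA1 at -7.94 and PHF19 at -5.29. A span grows with the number of genes. The median size of the difference was 0.61 for the 10 and 0.57 for the other SWI/SNF subunits. It was 0.68 for other remodellers and 0.37 for Polycomb.

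The subunits lie on 9 chromosomes, with SMARCC2 and SMARCD1 both on chromosome 12. For each, the 10 nearest tested protein-coding genes on either side were read from the same fit (SMARCA2, near a chromosome end, had 7 on 1 side). Around SMARCC2, 15 of 20 neighbours were lower in AGS and 3 higher, with a median log2 difference of -0.80 beside the subunit's own -0.88. Around SMARCD1, 15 were lower and 1 higher (median -0.44), and around SMARCD3, 16 were lower and 4 higher (median -0.82). Around SMARCA4, 11 were lower and 3 higher (median -0.70). On the other side, 16 neighbours of ARID1A were higher in AGS and 1 lower (median 0.84), 14 of ARID1B's were higher and 3 lower (median 0.58), and 13 of SMARCC1's were higher and 6 lower (median 0.49). The median over all 13839 tested protein-coding genes was -0.02. Neighbours counted as lower or higher are those that passed the test. Of all 18278 tested genes, 41.5% passed as lower and 35.7% as higher in AGS. SMARCA2 had 17 neighbours, 10 lower and 5 higher in AGS, with a median of -0.33 against its own -1.52, below the quartiles of its neighbours (-1.09 to 0.26). SMARCA4 (quartiles of its neighbours -0.96 to 0.03) and ARID1B (0.22 to 0.995) also lay just below theirs. The neighbours of SMARCB1 had a median of -0.10 and those of SMARCE1 of 0.18. The neighbours' median had the sign of the subunit's own difference for all subunits but SMARCB1. How often this holds for other genes was not counted, so it does not set the subunits apart. No test of this is given, since neighbours share their region.

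**Figure D5:**
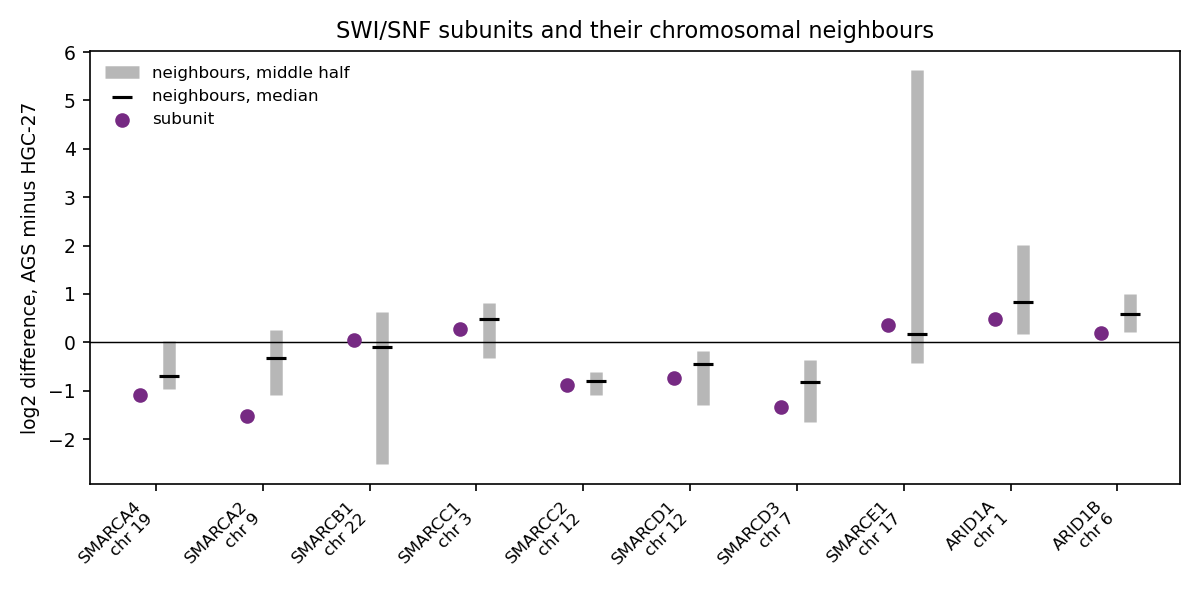
Log2 difference of AGS minus HGC-27 (vertical axis) of each subunit (purple points) beside its chromosomal neighbours (grey bars, lower to upper quartile; black mark, median), with the chromosome under each name. SMARCC2 lies at -0.88 beside a neighbours' median of -0.80, while SMARCA2 at -1.52 lies farthest below the bar of its neighbours.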

How the data were processed

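Per the labels' protocols, TRIzol was used to extract total RNA, and library construction followed a standard NEB procedure. The submitters' processing notes name HISAT2, featureCounts and the build hg18, with no versions. The deposited table holds raw read counts per gene. Its coordinates are those of GRCh38 rather than hg18: 58216 of 58336 gene IDs are in GENCODE release 29, and 57475 of these have the same start and end. The deposited gene length is in bases. Depth was 24597379 to 28734374 counts per library, so 3 counts correspond to 0.104 to 0.12 CPM.

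Counts were fitted in R 4.3.3 with edgeR 4.0.16 (TMM, filterByExpr, quasi-likelihood F-test, Benjamini-Hochberg) with terms for line and for treatment. The filter left 18278 genes, all 10 subunits among them. The number in a library's name marks its line, so same-numbered libraries are paired (Pearson r of log2(CPM + 1) across genes of 0.997 within each line, against 0.777 and 0.781 between lines). The model leaves 1 residual degree of freedom, so SEs rest on a spread pooled over genes (prior degrees of freedom 396.9). The SE of a fitted value is its size divided by the square root of F. Ratios within a line used a prior of 0.5 counts and exact conditional binomial intervals of 95%, which treat each read as independent. The labels name no molecular identifiers, so reads may not be independent molecules and the intervals may be too narrow. A subunit's main coding transcript is the basic GENCODE 29 transcript with the longest coding sequence. The steps were tested on simulated data. Alternatives used DESeq2 1.42.0, limma 3.58.1 and other scalings, filters, models and left-out libraries. Named genes were all 10 subunits and, from each other list, up to 6 genes that passed with the largest line differences, plus the 3 protein-coding genes most like each of SMARCA2 and SMARCD3. SMARCD2, BICRAL, ACTL6B and ACTB were named outside this rule, as were the cell type markers and the oestrogen receptors, which were listed as checks of the cells, and genes that overlap a subunit. The subunits and lists were chosen with earlier results of these data known. The result of 1 listed marker gene is not reported here.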

Additional observations from a re-analysis of the deposited data

How the results depend on the processing

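The count of subunits that passed between the lines was 9 and stayed at 7 to 9 under 11 alternatives. With estradiol it was 0 under all 7, where at most 28 genes were called in all. Of 110 alternative line differences, 105 kept their direction and their side of the threshold, 4 lost the call (SMARCE1 in 3, ARID1B in 1) and SMARCB1, never called, turned to -0.039 with upper-quartile factors. The number of genes called between the lines was 14106, and 12542 to 14357 under these alternatives. How small the adjusted p was depended on the tool. For SMARCA4 it was 8.49e-67 with edgeR and 2.01e-05 with limma-voom. The number called with estradiol over all genes was 28 and fell to 13 with library size only, 9 with upper-quartile factors, 1 with DESeq2, 0 with limma-voom (490 at an unadjusted p under 0.05) and 0 without the line as a replicate block (2 unadjusted, against 593 with it); the cause was not tested. The line pairs the libraries; with 0 genes called without the block, that fit says nothing about the stability of the subunits' values.

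Estradiol changes of the 10 were near 0, and their signs turned easily. SMARCA2 (-0.01 with edgeR and the block) was 0.000889 with limma-voom and 0.0126 without the replicate block. With 1 line left out, which leaves a value with no test, the range was -0.079 to 0.045 for SMARCA2, -0.026 to 0.014 for SMARCA4, -0.047 to 0.018 for SMARCB1, -0.022 to 0.040 for SMARCC1, -0.045 to 0.030 for SMARCD1, -0.085 to 0.050 for SMARCD3, -0.048 to 0.031 for ARID1A and -0.0045 to 0.048 for ARID1B.

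Paralog shares depend on the length used, while their order between the lines does not. Without division by length, mean shares in AGS and HGC-27 were 15.01% and 19.3% for SMARCA2, 74.0% and 56.0% for SMARCC1, 11.1% and 18.7% for SMARCD3, and 71.0% and 66.6% for ARID1A. With the length of the main coding transcript, an alternative chosen after seeing the data, they were 14.2% and 18.3% for SMARCA2, 64.7% and 45.1% for SMARCC1, 16.1% and 26.7% for SMARCD3, and 75.6% and 71.5% for ARID1A.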

Other observations

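By Euclidean distance over the 4 log2 CPM values, the protein-coding genes nearest to SMARCA2 among 13838 searched were TYMS (distance 0.191), RFX5 (0.194) and SMAD2 (0.211). Those nearest to SMARCD3 were PPIE (0.065), P3H4 (0.070) and GPATCH11 (0.088). With 4 libraries from 2 lines such likeness reflects mean level and line difference together. TYMS had 1335 and 1155 counts in AGS with and without estradiol and 3627 and 4188 in HGC-27, beside 1311 and 1302 in AGS and 3553 and 3987 in HGC-27 for SMARCA2.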
